A study of Neurospora crassa with 24 samples.

Results

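The deletion of *ve-1* was followed in a *Neurospora crassa* background that is labelled as lacking the photoreceptor WC-1, in sexual development tissue kept in the dark. The RNA-seq libraries labelled ∆*ve-1* ∆*wc-1* (the double mutant, dark, 3 libraries) were compared with those labelled ∆*wc-1* (dark, 3 libraries), so that 6 of the 24 libraries of the series carry the comparison and both groups share the ∆*wc-1* label. The members are the libraries whose count columns carry these 2 labels. The other dark libraries, 3 of the ∆*ve-1* mutant and 3 of the wild type, and the light libraries of the same strains, are used where values are set side by side. All tissue was grown on plates of synthetic crossing medium at 22°C for 7 days and collected 1 day before fertilization, when the fungus carries vegetative hyphae, some asexual structures and protoperithecia, the female organs that wait for a mating partner. The wild type and ∆*ve-1* strains are of mating type *mat A*. Each mutant is represented by 1 strain. The methods state that the tissue of biological replicates was combined for RNA extraction without saying which pool gave which library. The p-values therefore measure the spread between libraries of a group, which may be technical. In the main model that spread was estimated for each gene over all 24 libraries, not from the 6 alone.

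VE-1 is the *N. crassa* member of the velvet proteins, fungal regulators that bind DNA and act in complexes with one another and with a LaeA-type methyltransferase, and that balance asexual against sexual development and secondary metabolism. WC-1 is a blue-light photoreceptor and transcription factor that acts with WC-2 as the white-collar complex, drives light-induced genes, and in the dark keeps the circadian clock gene *frq* active. The comparison asks which transcripts depend on VE-1 when no light is given and WC-1 is, by the labels, missing.

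The 6 libraries had total counts of 32515892 to 38834215 in the libraries labelled double mutant and 34706762 to 42697941 in those labelled ∆*wc-1*. The biological coefficient of variation was 0.549 among the libraries labelled double mutant and 0.213 among those labelled ∆*wc-1*, and the Spearman correlation of their expression was 0.871 to 0.945 within the first group, 0.978 to 0.988 within the second and 0.742 to 0.928 between the groups. Replicate 2 of the double mutant stood apart: its 10 most abundant genes held 23.9% of all counts, against 7.38 to 7.5% in the other double-mutant libraries and 6.70 to 7.16% in those labelled ∆*wc-1*. Its TMM factor was 0.605, against 1.29 to 1.38 in the other 5 libraries, so its effective depth was lower: 3 counts were worth 0.153 CPM there and 0.0525 to 0.064 CPM elsewhere, and 1449 genes had 0 counts, against 894 to 1078. Of the double-mutant libraries, replicate 3 lay nearest to the ∆*wc-1* libraries. Among all 24 libraries, no dark double-mutant library had its highest Spearman correlation with another of its own group. For replicate 1 the nearest was light double-mutant replicate 3 (0.992). For replicate 2 it was dark ∆*ve-1* replicate 1 (0.969), and for replicate 3 it was light double-mutant replicate 1 (0.963). Over the genes called higher, the median log2 difference from the ∆*wc-1* mean was 1.98, 2.45 and 1.16 in double-mutant replicates 1, 2 and 3, and over the genes called lower it was -2.16, -2.35 and -1.70. Results are therefore given with and without the libraries that decide them.

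The deleted genes serve as a check of the labels. *ve-1* (NCU01731, on chromosome II at 2607929 to 2611456 of assembly NC12) had 6.29, 7.63 and 3.44 CPM (counts scaled to the TMM-normalized library size) in the libraries labelled double mutant, against 253, 270 and 280 CPM in those labelled ∆*wc-1*. All double-mutant values lay far below all others, with a log2 fold change of -5.54 ± 0.62 (SE, edgeR quasi-likelihood test, adjusted p = 2.8e-05), which bears out the label for this gene. *wc-1* (NCU02356), which both groups should lack, had 129, 37.0 and 36.1 CPM in the libraries labelled double mutant, against 69.2, 55.7 and 54.8 CPM in those labelled ∆*wc-1*. These levels overlapped, and the difference was 0.17 ± 0.74 on the log2 scale (adjusted p = 0.912). *wc-1* counts were thus not low in either group: the mean was 67.3 ± 53.2 CPM in the libraries labelled double mutant and 59.9 ± 8.06 CPM in those labelled ∆*wc-1*, beside 19.3 ± 7.19 CPM in ∆*ve-1* and 21.8 ± 5.41 CPM in the wild type in the dark (SD, n = 3 each). The counts do not bear out the ∆*wc-1* label at the level of the whole gene, and which part of the gene the strain lacks is not given in the sources used here. *frq*, whose transcription depends on the white-collar complex, was at 25.1 ± 12.6 CPM in the libraries labelled double mutant and 9.30 ± 2.65 CPM in those labelled ∆*wc-1*, beside 97.6 ± 33.0 CPM in ∆*ve-1* and 72.6 ± 25.8 CPM in the wild type (SD, n = 3 each).

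Between the libraries labelled double mutant and those labelled ∆*wc-1*, 1175 of 9412 genes tested were differentially expressed (DEGs; adjusted p below 0.05 and absolute log2 fold change above 1), which is 12.5% of the genes. Of these, 667 genes (7.09%) were higher in the double mutant and 508 (5.4%) were lower. The median absolute log2 fold change was 2.09 among the higher and 2.05 among the lower DEGs, and 78 higher and 73 lower DEGs changed by more than 4 on the log2 scale. The 3 libraries of one group did not overlap those of the other in 663 of the higher and all 508 of the lower DEGs, beside 48.2% of all genes tested. The number of DEGs rested on single libraries. It was 481 without double-mutant replicate 2 (231 higher and 250 lower), 649 without replicate 1, 1802 without replicate 3, 537 without ∆*wc-1* replicate 1 and 409 without ∆*wc-1* replicate 3. A library outside the 6 but in the same model also moved the number, to 1741 without light ∆*wc-1* replicate 1. Each of the 1175 DEGs kept its sign without any one of the 6 libraries. This is no separate support, since the DEGs were picked from these libraries and the groups overlapped in few of them. Whichever of the 6 was left out, 338 of the 1175 (133 higher and 205 lower) remained DEGs. These 338 are called stable below.

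Among the velvet genes, the loss of *ve-1* was accompanied by less *vos-1* mRNA. *vos-1* (NCU05964), which encodes a velvet protein related to VosA, a spore viability regulator of *Aspergillus nidulans*, had 15, 6.71 and 26.4 CPM in the libraries labelled double mutant, against 78.7, 75.5 and 75.3 CPM in those labelled ∆*wc-1*. It fell by 2.25 ± 0.72 on the log2 scale (adjusted p = 0.0439), but was no longer a DEG with the replicate number as a block (adjusted p = 0.0557) or without any of double-mutant replicates 1 and 2 and the 3 ∆*wc-1* replicates (adjusted p = 0.0811 to 0.195). The other velvet gene measured, *ve-2* (NCU02775), had 37.3, 15 and 55.1 CPM in the double mutant, against 81.6, 75.3 and 81.0 CPM in ∆*wc-1* and did not pass the test (log2 fold change -1.15 ± 0.54, adjusted p = 0.163) although the groups did not overlap. *lae-1* (NCU00646), which encodes the LaeA-type methyltransferase, had 17.7, 13.2 and 27.5 CPM in the libraries labelled double mutant, on both sides of the 18.0, 16.1 and 17.6 CPM in those labelled ∆*wc-1*.

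Of 6 white-collar and clock genes, 1 was higher in the double mutant and none was lower, beside 7.09% higher and 5.4% lower among all genes. *frq* (NCU02265) had 38.8, 22.4 and 14 CPM in the libraries labelled double mutant, against 10.4, 11.3 and 6.28 CPM in those labelled ∆*wc-1*. It rose by 1.43 ± 0.44 on the log2 scale (adjusted p = 0.0345), with no overlap of the groups. The call was lost without any of double-mutant replicates 1 and 2 and the 3 ∆*wc-1* replicates (adjusted p = 0.0608 to 0.19). *vvd* (NCU03967), which encodes the photoreceptor that damps the white-collar response, had 34.4, 19.8 and 7.83 CPM in the double mutant, against 6.23, 8.09 and 2.91 CPM in ∆*wc-1* and did not pass the test (1.85 ± 0.68, adjusted p = 0.0737). *wc-2* (NCU00902), which encodes the partner of WC-1, had 162, 87.5 and 156 CPM in the double mutant, against 170, 154 and 162 CPM in ∆*wc-1* (adjusted p = 0.671).

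**Figure D1:**
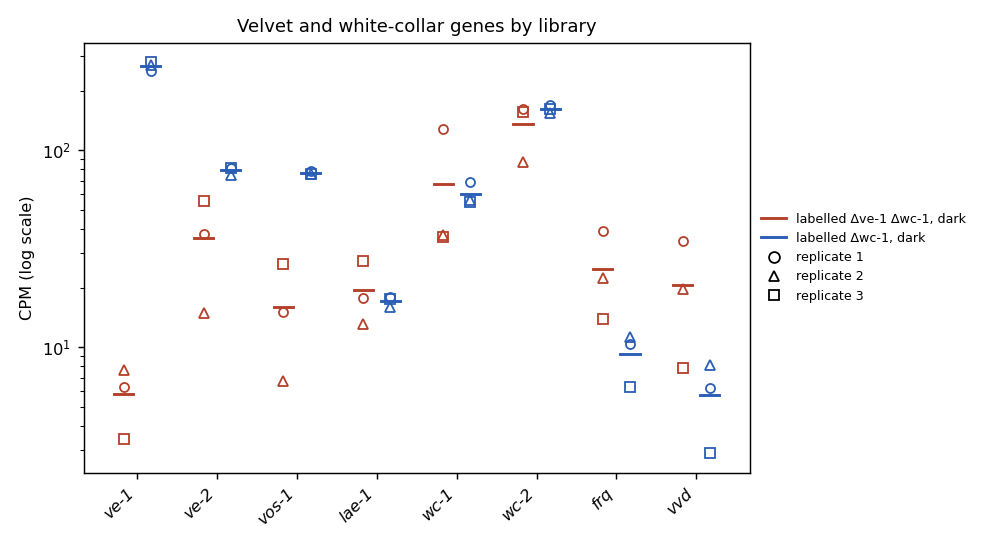
Expression of velvet, white-collar and clock genes in CPM on a log scale in the 3 dark libraries labelled ∆*ve-1* ∆*wc-1* (red, left) and the 3 labelled ∆*wc-1* (blue, right), with the mean of each group as a bar. *ve-1* lies between 3.44 and 7.63 CPM in the double mutant and between 253 and 280 CPM in ∆*wc-1*, while *wc-1* lies above 36 CPM in all 6 libraries and overlaps between the groups.

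In the cell wall integrity pathway, 6 of 10 genes fell and 4 did not pass the test. This pathway is a MAP kinase cascade that monitors the wall and is needed for hyphal fusion and for female fertility in *N. crassa*. All 10 genes listed for it had negative fitted values in the double mutant, with 0 called higher. The 6 lower calls stand beside 5.4% lower DEGs among all genes, and all 6 are also among the genes picked by the study that are described below. The median log2 fold change was -1.05 against 0.05 over all genes tested. *ham-7* (NCU00881), which encodes a cell surface protein that acts upstream of the kinase MAK-1, had 53.6, 44.1 and 123 CPM in the libraries labelled double mutant, against 322, 314 and 360 CPM in those labelled ∆*wc-1* (log2 fold change -2.17 ± 0.39, adjusted p = 0.00186). *ham-8* (NCU02811), which encodes a membrane protein that acts with it in cell fusion, had 42.2, 27.7 and 103 CPM in the double mutant, against 278, 321 and 413 CPM in ∆*wc-1* (-2.55 ± 0.54, adjusted p = 0.00527). For both genes the highest double-mutant library was replicate 3, still below the lowest ∆*wc-1* library. *adv-1* (NCU07392), which encodes a transcription factor downstream of MAP kinase signalling, had 19.6, 18.7 and 30.2 CPM in the double mutant, against 98.7, 82.4 and 99.8 CPM in ∆*wc-1* (-2.03 ± 0.33, adjusted p = 0.000707). *ham-7*, *ham-8* and *adv-1* were stable DEGs.

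The other cell wall integrity DEGs were closer to the threshold. *ham-6* (NCU02767), another fusion gene, had 4.82, 3.05 and 4.70 CPM in the libraries labelled double mutant, against 24.2, 21.4 and 26.8 CPM in those labelled ∆*wc-1* (-2.52 ± 0.65, adjusted p = 0.0145). *mak-1* (NCU09842), the MAP kinase itself, had 87.6, 75.4 and 155 CPM in the double mutant, against 230, 201 and 249 CPM in ∆*wc-1* and fell by 1.10 ± 0.35 (adjusted p = 0.041). *csp-6* (NCU08380), which encodes a phosphatase needed for conidial separation, had 110, 69.4 and 123 CPM in the double mutant, against 199, 201 and 204 CPM in ∆*wc-1* and was just past the fold threshold (-1.001 on the log2 scale, adjusted p = 0.0396). The groups did not overlap in any of these 3 genes. Without double-mutant replicate 2 or ∆*wc-1* replicate 3, 3 of the 10 genes remained DEGs, and without double-mutant replicate 1 or ∆*wc-1* replicate 1 or 2, 4 did. The upstream kinases *mik-1* (-0.43 ± 0.38) and *mek-1* (-0.34 ± 0.37) did not pass the test and their groups overlapped.

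In the pheromone response pathway, which carries the mating signal from receptor to MAP kinase MAK-2, the pheromone gene and the kinase gene differed in direction. Of 13 genes, 1 was higher and 1 was lower, near the 7.09% higher and 5.4% lower among all genes. *ccg-4* (NCU02500), the clock-controlled gene for the pheromone of *mat A* strains, had 11638, 28408 and 1682 CPM in the libraries labelled double mutant, against 233, 425 and 72.0 CPM in those labelled ∆*wc-1*. Its lowest double-mutant library was above its highest ∆*wc-1* library, and the log2 fold change was 5.84 ± 1.45 (adjusted p = 0.0118). The call was lost without ∆*wc-1* replicate 1 or 3 (adjusted p = 0.0606 to 0.0729). *mak-2* (NCU02393) had 210, 95.6 and 395 CPM in the double mutant, against 720, 569 and 693 CPM in ∆*wc-1* and fell by 1.5 ± 0.43 (adjusted p = 0.0269), a call lost without double-mutant replicate 1 or 2 or ∆*wc-1* replicate 1 or 3 (adjusted p = 0.0844 to 0.136). The transcription factor gene *pp-1* (NCU00340) had 146, 117 and 219 CPM in the double mutant, against 344, 298 and 335 CPM in ∆*wc-1* and narrowly missed the threshold (-1.02 ± 0.35, adjusted p = 0.0601). The MAP kinase kinase gene *mek-2* (-0.83 ± 0.39) and the kinase gene *nrc-1* (-0.68 ± 0.42) above it did not pass either. The pheromone receptor genes *pre-1* (0.39 ± 0.43) and *pre-2* (-0.40 ± 0.46) and the G protein subunit genes *gna-1*, *gnb-1* and *gng-1* (-0.50, -0.30 and 0.45) did not pass the test.

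A list of 15 genes of these 2 pathways and of hyphal fusion was taken from genes that the study had picked from its own data, so their direction is not independent evidence. The list leaves out *pre-1* (0.39) and *ccg-4* (5.84), which the study also picked and which had positive values. All 15 had negative log2 fold changes, with a median of -1.001, and 7 were lower DEGs, beside 5.4% among all genes. The 7 were *mak-1*, *mak-2*, *adv-1*, *ham-6*, *ham-7*, *ham-8* and *csp-6*. Their summed level was 905 to 1898 CPM in the libraries labelled double mutant and 2908 to 3421 CPM in those labelled ∆*wc-1*. The number of DEGs among them was 3 without double-mutant replicate 2 or ∆*wc-1* replicate 3 and 4 without double-mutant replicate 1 or ∆*wc-1* replicate 1, and it was 4 in a fit of the 6 libraries alone. Beyond the 15, *ham-11* (NCU04732), needed for fusion between conidial germlings, had 16.5, 4.88 and 26.3 CPM in the double mutant, against 72.4, 57.1 and 65.1 CPM in ∆*wc-1* and was lower (-2.03 ± 0.56, adjusted p = 0.0209), a call lost without double-mutant replicate 1 or 2 or ∆*wc-1* replicate 1 or 3 (adjusted p = 0.0635 to 0.102). The other 7 fusion and STRIPAK genes did not pass the test.

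In the osmosensing pathway, 1 of 6 genes was higher and 1 was lower, beside 7.09% higher and 5.4% lower among all genes. *rrg-1* (NCU01895), which encodes the response regulator that relays the osmotic signal to the MAP kinase OS-2, had 63.8, 48.2 and 65.7 CPM in the libraries labelled double mutant, against 145, 158 and 182 CPM in those labelled ∆*wc-1*. It was a stable DEG with a log2 fold change of -1.45 ± 0.29 (adjusted p = 0.00314). *hpt-1* (NCU01489), which encodes the phosphotransfer protein just above it, had 281, 435 and 258 CPM in the double mutant, against 146, 161 and 153 CPM in ∆*wc-1* and was higher (1.08 ± 0.33, adjusted p = 0.035). That call was lost without any of double-mutant replicates 1 and 2 and the 3 ∆*wc-1* replicates (adjusted p = 0.0574 to 0.196). The kinase genes *os-1*, *os-2*, *os-4* and *os-5* did not pass the test, with log2 fold changes of -0.75 to 0.28.

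**Figure D2:**
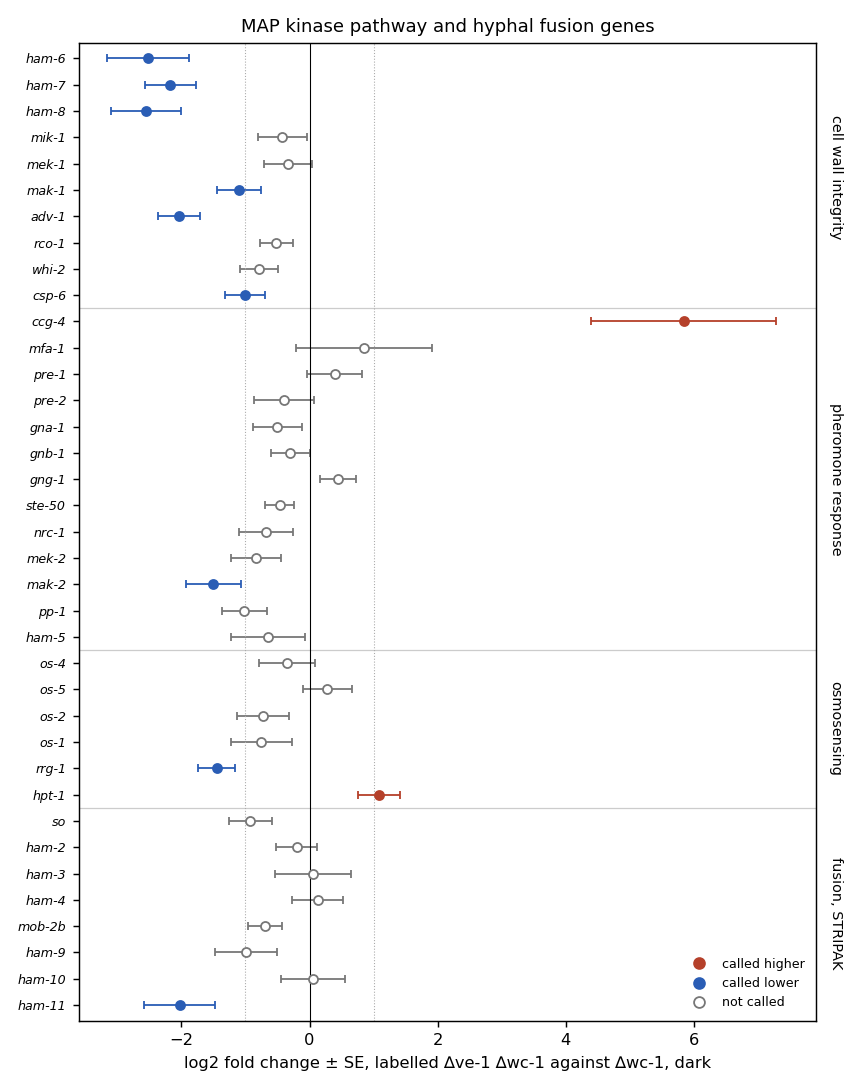
Log2 fold changes with their SE for genes of the cell wall integrity, pheromone response and osmosensing pathways and of hyphal fusion, in double-mutant libraries (∆*ve-1* ∆*wc-1* by label) against those labelled ∆*wc-1* in the dark. Filled points passed the test, and dotted lines mark a log2 fold change of 1 in either direction. All 10 cell wall integrity genes lie left of 0, from -2.55 to -0.34, while *ccg-4* stands at 5.84.

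Of 14 listed regulators of sexual development, 1 was lower and none was higher, beside 7.09% higher and 5.4% lower among all genes. Their log2 fold changes went both ways, between -1.57 and 1.28, with a median of -0.16. *nox-1* (NCU02110), which encodes an NADPH oxidase needed for fruiting bodies, had 30.9, 22.9 and 26.9 CPM in the libraries labelled double mutant, against 79.9, 67.2 and 65.0 CPM in those labelled ∆*wc-1* (-1.39 ± 0.45, adjusted p = 0.0441). The 2 groups were well apart, but the call was lost whichever of the 6 libraries was left out (adjusted p = 0.0678 to 0.168) and with the replicate number as a block (adjusted p = 0.0629). *fsd-1* (NCU09915), a transcription factor gene of female development, had 452, 120 and 226 CPM in the double mutant, against 296, 265 and 279 CPM in ∆*wc-1* (-0.07 ± 0.60), and *sub-1* (NCU01154) had 28.6, 22.7 and 56.9 CPM in the double mutant, against 36.4, 36.8 and 40.3 CPM in ∆*wc-1* (-0.07 ± 0.50). *Asm-1* (NCU01414), a transcription factor gene of ascospore maturation, had 87.1, 148 and 247 CPM in the double mutant, against 442, 476 and 516 CPM in ∆*wc-1*, without overlap but above the threshold (-1.57 ± 0.56, adjusted p = 0.0668). None of the 4 mating-type genes (*matA-1*, *matA-2*, *matA-3*, *fmf-1*) passed the test, and all 4 had positive values (0.49 to 1.63). As a check of the tissue, 8 markers of protoperithecia and mating fixed for this purpose were present in all 6 libraries. Of these, 6 had positive values and 1, *ccg-4*, was higher. Their summed level was 2091 to 28830 CPM in the libraries labelled double mutant and 510.5 to 890.8 CPM in those labelled ∆*wc-1*, without overlap. Without *ccg-4* it was 409 to 745 CPM in the libraries labelled double mutant and 439 to 466 CPM in those labelled ∆*wc-1*, ranges that overlapped.

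Of 15 listed conidiation genes, 5 rose in the double mutant and 10 did not pass the test. Conidia are the asexual spores of *N. crassa*, formed on aerial hyphae under control of the regulator FL. None of the 15 was lower, the 5 higher DEGs stand beside 7.09% higher and 5.4% lower among all genes, and the median log2 fold change was 1.27, with 3 negative values. *con-10* (NCU07325), a gene expressed during conidial development, had 2328, 3683 and 393 CPM in the libraries labelled double mutant, against 84.8, 111 and 86.0 CPM in those labelled ∆*wc-1* (4.50 ± 0.96, adjusted p = 0.00522), and was a stable DEG. Replicate 3 was the lowest double-mutant library and still above all ∆*wc-1* libraries. *con-6* (NCU08769), another conidiation gene, had 1565, 2701 and 1069 CPM in the double mutant, against 132, 267 and 25.0 CPM in ∆*wc-1* (3.66 ± 1.10, adjusted p = 0.0332). *fl* (NCU08726), which encodes the conidiation regulator itself, had 374, 202 and 95.8 CPM in the double mutant, against 45.6, 78.6 and 12.3 CPM in ∆*wc-1* (2.30 ± 0.64, adjusted p = 0.0235). *eas* (NCU08457), which encodes the hydrophobin of the conidial rodlet layer, had 9995, 10118 and 6349 CPM in the double mutant, against 691, 2517 and 144 CPM in ∆*wc-1* (2.98 ± 0.98, adjusted p = 0.0478). *bli-4* (NCU08699), a blue-light-induced gene, had 159, 142 and 65.7 CPM in the double mutant, against 22.7, 41.6 and 5.43 CPM in ∆*wc-1* (2.39 ± 0.70, adjusted p = 0.0287). The groups did not overlap in any of these 5 genes.

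These calls rested on few libraries. Only *con-10* of the 5 remained a DEG without any one of the 6 libraries. The calls of *con-6*, *fl*, *eas* and *bli-4* were lost without double-mutant replicate 1 or 2 or ∆*wc-1* replicate 1 or 3, and 1 of the 15 genes was then a DEG in each case. *eas* was also lost with the replicate number as a block (3.14, adjusted p = 0.0571). The other conidiation genes were uneven. *csp-1* (1.27 ± 0.48), *csp-2* (0.58 ± 0.33) and *cat-1* (1.48 ± 0.58) were above the ∆*wc-1* libraries in every double-mutant library without passing the test. *con-8*, *con-13*, *ccg-6*, *bli-3*, *acon-2* and *acon-3* overlapped. *ccg-1* (NCU03753) had 5661, 12539 and 8228 CPM in the double mutant, against 14303, 12145 and 12908 CPM in ∆*wc-1* (-0.57 ± 0.58). The groups did not overlap in 8 of the 15 genes, near the 48.2% among all genes tested. The 7 asexual markers fixed as a check of the tissue (*con-6*, *con-8*, *con-10*, *con-13*, *eas*, *fl* and *ccg-6*) are all among these 15 genes. They are therefore no separate evidence, and the genes with negative values, *acon-2*, *acon-3* and *ccg-1*, are not among them. All 7 markers had positive values, 4 were higher DEGs (*con-6*, *con-10*, *eas* and *fl*) and none was at 0 in any of the 6 libraries. The summed level of the 7 markers was 11820 to 23870 CPM in the libraries labelled double mutant and 3401 to 6483 CPM in those labelled ∆*wc-1*. It was 23620 to 41350 CPM in dark ∆*ve-1* and 5938 to 6854 CPM in dark wild-type libraries. In bulk tissue, more cells of a type and more RNA per cell cannot be told apart, and the part of asexual tissue in the other results was not tested.

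Of 6 genes for photoreceptors other than WC-1 and for a photolyase (*phr*), 2 were higher and 1 was lower, beside 7.09% higher and 5.4% lower among all genes. They include *vvd*, given above. *nop-1* (NCU10055), which encodes an opsin, had 2895, 8319 and 833 CPM in the libraries labelled double mutant, against 288, 425 and 239 CPM in those labelled ∆*wc-1* (3.66 ± 0.82, adjusted p = 0.00689), and lost its call without double-mutant replicate 2 (adjusted p = 0.0522). *cry* (NCU00582), which encodes a cryptochrome of the DASH type, had 219, 138 and 83.7 CPM in the double mutant, against 20.7, 37.4 and 6.02 CPM in ∆*wc-1* (2.78 ± 0.77, adjusted p = 0.0222), and lost its call without double-mutant replicate 1 or 2 or ∆*wc-1* replicate 1 or 3 (adjusted p = 0.0534 to 0.114). *phy-2* (NCU05790), a phytochrome gene, went the other way, with 3.60, 1.78 and 4.22 CPM in the double mutant, against 12.4, 12.4 and 15.5 CPM in ∆*wc-1* (-2.06 ± 0.50, adjusted p = 0.00991; 0.0648 without double-mutant replicate 2). Carotenoid synthesis is induced by light in *N. crassa*. None of the carotenoid genes *al-1*, *al-2*, *al-3*, *cao-2* and *ylo-1* passed the test in the dark, with log2 fold changes of -0.95 to 0.92.

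**Figure D3:**
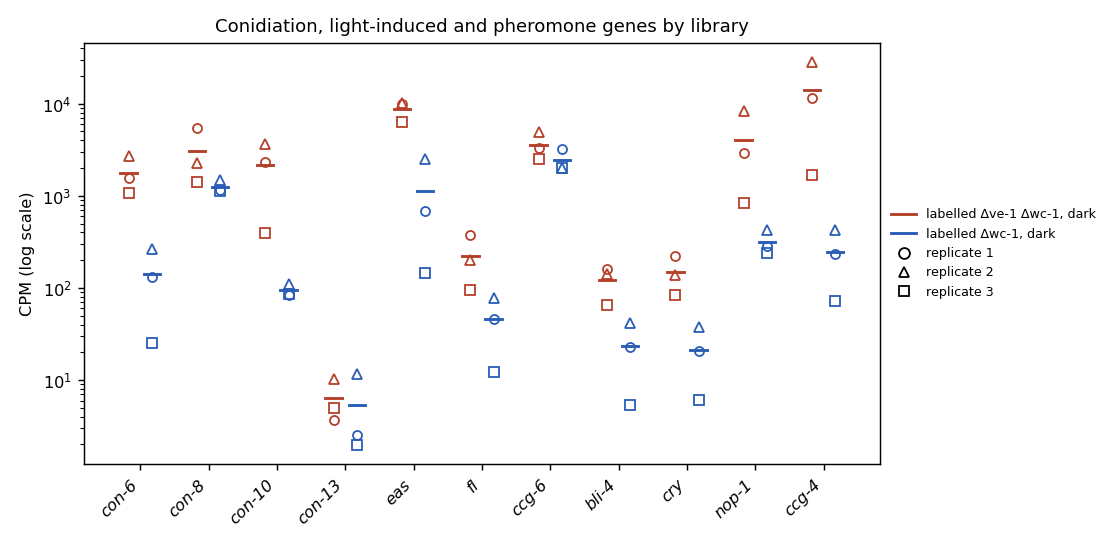
Expression in CPM on a log scale of conidiation genes, *bli-4*, *cry*, *nop-1* and the pheromone gene *ccg-4* in the 3 dark libraries labelled ∆*ve-1* ∆*wc-1* (red, left) and the 3 labelled ∆*wc-1* (blue, right), with the mean of each group as a bar. *con-10*, *con-6*, *eas*, *fl* and *bli-4* do not overlap between the groups, and ∆*wc-1* replicate 3 is the lowest of its group for *con-6*, *eas*, *fl*, *bli-4* and *cry*.

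Of 9 genes for catalases, NADPH oxidases and related enzymes, 2 were higher and 2 were lower, beside 7.09% higher and 5.4% lower among all genes. *cat-3* (NCU00355), which encodes a catalase of growing hyphae, had 7.12, 10.7 and 5.68 CPM in the libraries labelled double mutant, against 107, 74.0 and 51.0 CPM in those labelled ∆*wc-1* (-3.31 ± 0.46, adjusted p = 0.000222). *cat-4* (NCU05169), another catalase gene, had 107, 126 and 54.6 CPM in the double mutant, against 15.1, 28.8 and 11.8 CPM in ∆*wc-1* (2.36 ± 0.40, adjusted p = 0.00115). Both were stable DEGs of opposite direction. *sod-2* (NCU01213), a superoxide dismutase gene, had 298, 1244 and 131 CPM in the double mutant, against 55.5, 72.2 and 51.6 CPM in ∆*wc-1* (3.22 ± 0.93, adjusted p = 0.0265), and lost its call without double-mutant replicate 2 or any ∆*wc-1* replicate (adjusted p = 0.0694 to 0.247). Of 6 melanin and phenol oxidase genes, 1 was higher and 1 was lower, beside 7.09% higher and 5.4% lower among all genes. *pig-1* (NCU05821), annotated as a melanin pigment gene, had 0.149, 0 and 0.113 CPM in the double mutant, against 4.73, 3.53 and 5.01 CPM in ∆*wc-1* (-5.45 ± 0.73, adjusted p = 0.000134), a low level at which a count of 0 in double-mutant replicate 2 allows up to 0.153 CPM (3 counts, counting error only). *lacc* (NCU04528), a laccase gene, had 35.8, 37.4 and 20.1 CPM in the double mutant, against 4.42, 4.40 and 4.48 CPM in ∆*wc-1* (2.81 ± 0.52, adjusted p = 0.00208). Both were stable DEGs, while *per-1* (NCU03584), the polyketide synthase gene of perithecial melanin, had 33.8, 28.1 and 19.2 CPM in the double mutant, against 23.7, 32.6 and 19.7 CPM in ∆*wc-1* (0.09 ± 0.64).

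Of 17 cell wall protein genes, 5 were higher, 2 were lower and 10 did not pass the test, beside 7.09% higher and 5.4% lower among all genes, with a median log2 fold change of 0.70. Without double-mutant replicate 2, 1 was higher and 2 were lower. *acw-5* (NCU07776), which encodes an anchored wall protein, had 2869, 4602 and 2470 CPM in the libraries labelled double mutant, against 220, 343 and 164 CPM in those labelled ∆*wc-1* (3.77 ± 0.56, adjusted p = 0.000316). *ncw-3* (NCU07817), which encodes a wall protein without an anchor, had 2402, 22926 and 857 CPM in the double mutant, against 306, 461 and 145 CPM in ∆*wc-1* (4.84 ± 1.31, adjusted p = 0.0197), and lost its call without double-mutant replicate 2 or any ∆*wc-1* replicate (adjusted p = 0.0516 to 0.229). *ncw-4* (NCU02948) was higher too, with means of 942 CPM in the double mutant and 201 CPM in ∆*wc-1* (2.23 ± 0.53, adjusted p = 0.00912; lost without double-mutant replicate 2 or ∆*wc-1* replicate 1 or 3, adjusted p = 0.051 to 0.068). *ncw-2* (NCU01752) had 12.6, 8.34 and 5.14 CPM in the double mutant, against 39.2, 35.8 and 33.5 CPM in ∆*wc-1* (-2.06 ± 0.40, adjusted p = 0.00281) and *ncw-1* (NCU05137) had 74.5, 55.5 and 88.9 CPM in the double mutant, against 283, 236 and 283 CPM in ∆*wc-1* (-1.87 ± 0.39, adjusted p = 0.00455). *acw-5*, *ncw-1* and *ncw-2* were stable DEGs.

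Of 78 glycoside hydrolase genes tested, of 79 listed, 8 were higher, 9 were lower and 61 did not pass the test, beside 7.09 and 5.4% among all genes, and the median log2 fold change was -0.08. *gh13-1* (NCU08131), an alpha-amylase gene, had 4625, 4880 and 1720 CPM in the libraries labelled double mutant, against 554, 633 and 301 CPM in those labelled ∆*wc-1* (2.92 ± 0.54, adjusted p = 0.00197), and was stable. *gh47-2* (NCU03134), a mannosidase gene, had 127, 140 and 61.2 CPM in the double mutant, against 10, 22.3 and 2.61 CPM in ∆*wc-1* (3.23 ± 0.79, adjusted p = 0.0107), and lost its call without ∆*wc-1* replicate 1 or 3 (adjusted p = 0.0565 to 0.0605). *gh76-5* (NCU09937), annotated as a cell wall hydrolase, had 4.52, 8.54 and 5.33 CPM in the double mutant, against 84.0, 95.8 and 116 CPM in ∆*wc-1* (-4.01 ± 0.43, adjusted p = 1.68e-05), and *gh47-4* (NCU05836) had 4.05, 6.71 and 7.57 CPM in the double mutant, against 36.6, 29.5 and 29.7 CPM in ∆*wc-1* (-2.39 ± 0.48, adjusted p = 0.00357). Both were stable. The 2 mannosidase genes *gh47-2* and *gh47-4* thus went in opposite directions. The number of higher glycoside hydrolase DEGs was 2 without double-mutant replicate 2 and 1 without ∆*wc-1* replicate 1 or 3.

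Among receptors and kinases, 2 of 6 G-protein-coupled receptor genes were higher and 1 was lower, beside 7.09% higher and 5.4% lower among all genes. *gpr-5* (NCU00300) had 68.2, 46.5 and 36.9 CPM in the libraries labelled double mutant, against 16, 14.6 and 14.2 CPM in those labelled ∆*wc-1* (1.76 ± 0.36, adjusted p = 0.00415). *gpr-6* (NCU09195), like *gpr-5* annotated as a PQ-loop protein, had 110, 105 and 136 CPM in the double mutant, against 48.2, 49.1 and 37.8 CPM in ∆*wc-1* (1.38 ± 0.25, adjusted p = 0.00194). Both were stable, whereas the lower gene *gpr-4* (NCU06312; -1.48 ± 0.41, adjusted p = 0.0227), whose product acts in carbon sensing, lost its call without double-mutant replicate 2 or any ∆*wc-1* replicate (adjusted p = 0.0511 to 0.131). Serine/threonine kinase genes were listed by an *stk* symbol, which leaves out others such as the lower DEGs *mak-1* and *mak-2*. Of the 51 listed genes tested, 3 were higher and 1 was lower, no more than the 7.09% higher and 5.4% lower among all genes. The lower one, *stk-44* (NCU06583), had 4.69, 6.97 and 15.9 CPM in the double mutant, against 443, 384 and 450 CPM in ∆*wc-1*, a log2 fold change of -5.53 ± 0.66 (adjusted p = 5.56e-05). The gene next to it, NCU06582, was among the 8 largest falls, as given below. *stk-29* (NCU04326) had 101, 78.5 and 44.6 CPM in the double mutant, against 19.5, 22.0 and 15.9 CPM in ∆*wc-1* (1.96 ± 0.44) and *stk-25* (NCU03823) had 24.4, 28.3 and 26.3 CPM in the double mutant, against 7.40, 7.5 and 6.67 CPM in ∆*wc-1* (1.87 ± 0.28). *stk-44*, *stk-29* and *stk-25* were stable.

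None of 29 genes for subunits of respiratory complex I passed the test, beside 12.5% called among all genes. Of the 29, 24 had negative values, beside 4492 of all 9412 genes, and the median was -0.61. Their summed level was 2247 to 3855 CPM in the libraries labelled double mutant and 4163 to 4568 CPM in those labelled ∆*wc-1*. All 7 cytoplasmic ribosomal protein genes listed by symbol had positive values (median 0.97), beside 4919 of all 9412 genes, and none passed. Their summed level was 5232 to 20544 CPM in the libraries labelled double mutant and 5053 to 5201 CPM in those labelled ∆*wc-1*. The lowest double-mutant library was thus close to the ∆*wc-1* range. Of 10 heat shock protein genes, 1 was higher and none was lower, beside 7.09% higher and 5.4% lower among all genes: *hsp60* (NCU01589; 1.41 ± 0.45, adjusted p = 0.0449), lost with the replicate number as a block (adjusted p = 0.0595) and without any of double-mutant replicates 1 and 2 and the 3 ∆*wc-1* replicates (adjusted p = 0.112 to 0.188).

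The 8 largest rises among DEGs with a mean of at least 10 CPM and no overlap of the groups included few named genes. NCU02663, annotated as *lys-10*, was the largest. It had 190, 117 and 130 CPM in the libraries labelled double mutant, against 1.46, 0.903 and 1.23 CPM in those labelled ∆*wc-1*, a log2 fold change of 6.93 ± 0.90 with like values within each group (adjusted p = 0.000107). NCU11289, an aldo-keto reductase gene, had 15.2, 67.7 and 1.79 CPM in the double mutant, against 0.208, 0.196 and 0.280 CPM in ∆*wc-1* (6.93). NCU00292, annotated as the cholinesterase gene *cea-3*, had 44.0, 526 and 25.2 CPM in the double mutant, against 2.71, 2.28 and 1.37 CPM in ∆*wc-1* (6.55), so that double-mutant replicate 2 was more than 10 times the other double-mutant libraries. NCU07983, with no known product, had 153, 160 and 14.4 CPM in the double mutant, against 2.58, 1.37 and 0.525 CPM in ∆*wc-1* (6.19). The others were NCU05187 (6.64), NCU09455 (6.53), NCU09494 (5.87) and *ccg-4* (5.84). Of the 8, NCU02663, NCU11289, NCU05187, NCU07983 and NCU09494 were stable, and the calls of NCU00292 (adjusted p = 0.0524 to 0.0569) and NCU09455 (adjusted p = 0.0731 to 0.165) were lost without double-mutant replicate 2 or ∆*wc-1* replicate 3, and that of NCU09455 also without ∆*wc-1* replicate 1.

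The 8 largest falls were of genes near silence in the double mutant. NCU08085 had 0 counts in all 3 libraries labelled double mutant, against 10.2, 10.6 and 15.7 CPM in those labelled ∆*wc-1*. With 3 counts per library as the floor it was at least 66.9-fold lower (adjusted p = 0.0139; lost without double-mutant replicate 1 or 2, adjusted p = 0.0525 to 0.0555). NCU01853, annotated as the choline dehydrogenase gene *bet-1*, had 3.39, 4.17 and 0.903 CPM in the double mutant, against 229, 292 and 440 CPM in ∆*wc-1* (-6.84 ± 1.32, adjusted p = 0.00274). NCU08657 had 0.426, 6.36 and 0.301 CPM in the double mutant, against 137, 337 and 527 CPM in ∆*wc-1* (-7.19). NCU06582, the neighbour of *stk-44*, had 0.0426, 0.610 and 0.339 CPM in the double mutant, against 26.6, 23.8 and 26.5 CPM in ∆*wc-1* (-6.36). NCU09904, annotated as the glucanase gene *gh16-12*, had 1.15, 6.51 and 2.07 CPM in the double mutant, against 184, 230 and 268 CPM in ∆*wc-1* (-6.16). NCU01853, NCU08657, NCU06582 and NCU09904 were stable. The other 3, NCU02924, *pks-6* and NCU02922, lie side by side and are described with their neighbours below.

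By change in CPM rather than in fold, *ccg-4*, *ncw-3*, *eas*, *nop-1* and *gh13-1*, all given above, rose most. The 5 largest falls in CPM were of genes that stayed at 19.3 CPM or more in every double-mutant library. NCU03600, annotated as the GTP-binding protein gene *gtp-5*, had 147, 212 and 203 CPM in the libraries labelled double mutant, against 2608, 1294 and 1556 CPM in those labelled ∆*wc-1* (-3.28 ± 0.59, adjusted p = 0.0018). NCU07894, annotated as the oligopeptide transporter gene *opt-3*, had 162, 135 and 171 CPM in the double mutant, against 1291, 1396 and 1350 CPM in ∆*wc-1* (-3.11 ± 0.46, adjusted p = 0.000336), with little spread in either group. *hex-1* (NCU08332), the gene for the main protein of the Woronin body, which plugs septal pores after wounding, had 374, 177 and 435 CPM in the double mutant, against 1544, 1390 and 1583 CPM in ∆*wc-1* (-2.20 ± 0.50, adjusted p = 0.00746). NCU09568 had 42.6, 63.5 and 19.3 CPM in the double mutant, against 715, 847 and 1664 CPM in ∆*wc-1* (-4.69). These 4 were stable. NCU08055, annotated as the bZIP transcription factor gene *zip-1*, had 527, 632 and 926 CPM in the double mutant, against 2161, 2048 and 1641 CPM in ∆*wc-1* (-1.49 ± 0.41, adjusted p = 0.0215), and lost its call without any of double-mutant replicates 1 and 2 and the 3 ∆*wc-1* replicates (adjusted p = 0.0533 to 0.0931).

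Some DEGs of one direction lay next to each other. Of the 667 higher DEGs, 164 (24.6%) had a neighbouring gene that was also higher. Of the 508 lower DEGs, 115 (22.6%) had a neighbour that was also lower. Among all genes, 7.09% were higher and 5.4% lower, and a gene can have a neighbour on each side. The share of all genes with such a neighbour was not computed, so whether DEGs cluster was not tested. The longest runs were singled out after their values were seen. The longest lower run held 8 genes on chromosome I (8677529 to 8699834), from *fbm-1* (NCU02925), annotated as fruiting body maturation-1, through the epoxide hydrolase gene NCU02924 and the dehydrogenase and cupin domain genes NCU02923 to NCU02919 to *pks-6* (NCU02918), which encodes a polyketide synthase. *pks-6* had 1.17, 4.37 and 0.0753 CPM in the libraries labelled double mutant, against 88.5, 226 and 32.6 CPM in those labelled ∆*wc-1* (-6.01 ± 1.45, adjusted p = 0.0101; 0.0531 without double-mutant replicate 1). *fbm-1* had 4.97, 22.2 and 2.01 CPM in the double mutant, against 234, 394 and 122 CPM in ∆*wc-1* (-4.70, adjusted p = 0.00197). NCU02919, a cupin domain gene, had 0.213, 12.9 and 0.188 CPM in the double mutant, against 204, 472 and 131 CPM in ∆*wc-1* (-5.95, adjusted p = 0.0119). Over the 8 genes the log2 fold changes were -6.18 to -4.70. ∆*wc-1* replicate 2 was the highest of its group in all 8 genes and double-mutant replicate 2 in 7 of them, so the genes varied together between libraries of one label as well as between the labels. All 8 were also lower in dark ∆*ve-1* than in dark wild-type libraries (-8.88 to -3.67) and in the double mutant than in ∆*wc-1* in light (-12.11 to -3.89).

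The longest higher run held 6 genes on chromosome VII (4157036 to 4170729), NCU05883, NCU05884, NCU05885, NCU14144, NCU05886 and NCU05887. They include genes annotated as monooxygenases (NCU05883 and NCU05885), a transporter (NCU05884) and an oxidoreductase (NCU05887). NCU05883 had 130, 137 and 147 CPM in the libraries labelled double mutant, against 5.75, 16.6 and 0.805 CPM in those labelled ∆*wc-1*, even among the double-mutant libraries and uneven among the others. NCU05887 had 358, 979 and 352 CPM in the double mutant, against 31.5, 177 and 18.2 CPM in ∆*wc-1*. The log2 fold changes of the 6 genes were 2.90 to 4.38 (adjusted p = 0.00738 to 0.0425). NCU05883 overlaps NCU05882 and NCU14144 overlaps NCU05885 at the end, so their counts rest on the stranded counting stated in the methods.

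**Figure D4:**
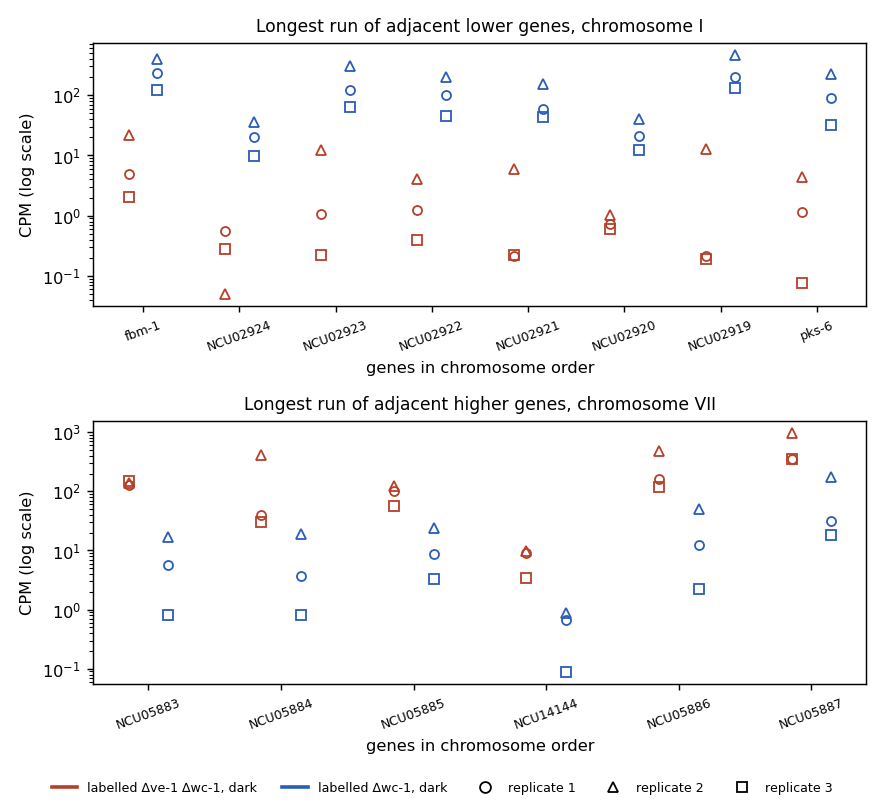
Expression in CPM on a log scale of the genes of the longest runs of adjacent lower DEGs (top, 8 genes) and higher DEGs (bottom, 6 genes), in chromosome order, in the 3 dark libraries labelled ∆*ve-1* ∆*wc-1* (red, left) and the 3 labelled ∆*wc-1* (blue, right). The point at the lower edge for NCU02924 is double-mutant replicate 2 with 0 counts, drawn at 0.05 CPM. In the lower run every double-mutant value is at or below 22.2 CPM, and in the higher run no gene overlaps between the groups.

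The same deletion was measured in strains without the ∆*wc-1* label, in libraries whose means do not enter the comparison above. Both comparisons come from 1 model of all 24 libraries and share its estimate of spread for each gene. Their calls are therefore not fully independent. With no light given, 1047 genes (11.1%) were higher and 1119 (11.9%) lower in ∆*ve-1* tissue than in wild-type tissue. Their total of 2166 was 1153 without ∆*ve-1* replicate 1, 1381 without wild-type replicate 1 and 1283 without wild-type replicate 3. Of the 667 genes higher in the libraries labelled double mutant against ∆*wc-1*, 567 (85.0%) were also higher in ∆*ve-1*, which is 54.2% of the 1047, and of the 508 lower genes 455 (89.6%) were also lower in ∆*ve-1*, which is 40.7% of the 1119. None was called in the opposite direction. The 667 genes had a median log2 fold change of 2.09 in the libraries labelled double mutant against ∆*wc-1* and 2.12 in ∆*ve-1* against the wild type, and that of the 508 genes was -2.05 and -2.23. Across the 9412 genes, which are not independent replicates, the log2 fold changes had a Pearson r of 0.816 and a Spearman rho of 0.862. Side by side, *ham-7* had -2.17 in the first comparison and -2.93 in the second, *adv-1* -2.03 and -2.36, *con-10* 4.50 and 3.36, *ccg-4* 5.84 and 5.00, *cat-3* -3.31 and -4.05, *stk-44* -5.53 and -5.98. Other genes lay further apart: *pig-1* had -5.45 in the first and -2.46 in the second, *pks-6* -6.01 and -8.88, *ham-9* -0.995 and -2.47, *con-13* 0.24 and 3.45, and *T* 0.14 and -1.71. The difference of effects passed the test for none of these 5 genes. *frq* was at 1.43 in the first and 0.43 in the second, where it was not called.

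Whether the effect of the deletion differed between the 2 backgrounds was tested directly. The difference of the log2 fold changes passed the test for 2 genes (0.0212%), and 166 genes had an unadjusted p below 0.05. The larger number of DEGs in ∆*ve-1* against the wild type therefore does not show, gene by gene, that the effect differed. The 2 genes were NCU09968 and NCU09969, which overlap on chromosome VI (309546 to 315476 and 314113 to 320071). NCU09968 had 117, 47.6 and 51.9 CPM in the libraries labelled double mutant, against 40.1, 39.2 and 35.9 CPM in those labelled ∆*wc-1*. In ∆*ve-1* it had 0, 0.0661 and 0 CPM, against 90.6, 65.7 and 42.4 CPM in the wild type. NCU09969 had 17.8, 14.8 and 13.4 CPM in the double mutant, against 10.05, 12.8 and 9.82 CPM in ∆*wc-1*, and 0 counts in all 3 ∆*ve-1* libraries against 23.3, 17.9 and 23.7 CPM in the wild type, where it was at least 133-fold lower with a floor of 3 counts per library. Both genes were thus at background in ∆*ve-1* and present in the double mutant, which carries the same deletion by its label.

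**Figure D5:**
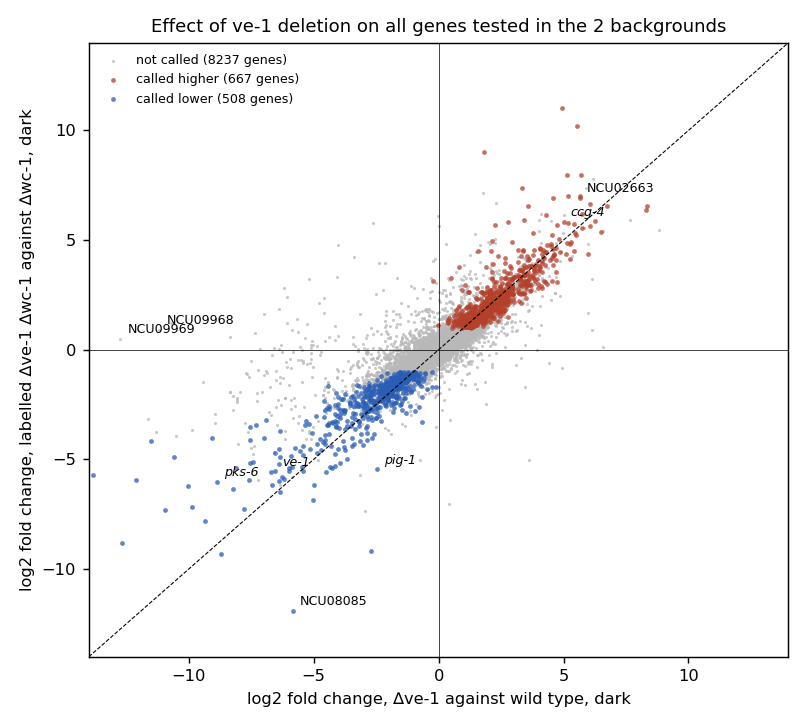
Log2 fold changes of 9412 genes in double-mutant libraries (∆*ve-1* ∆*wc-1* by label) against ∆*wc-1* (vertical) and in ∆*ve-1* against the wild type (horizontal), both in the dark, with the 667 higher (red) and 508 lower (blue) DEGs of the first comparison and the line of equal change (dashed). The DEGs lie along the line, with r = 0.816 over all genes, and NCU09968 and NCU09969 lie far to the left near a vertical value of 0.91 and 0.50.

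In light, the libraries labelled double mutant differed from those labelled ∆*wc-1* in 621 higher (6.6%) and 559 lower genes (5.94%). Of the 667 genes higher in the dark, 377 were also higher in light (56.5%, which is 60.7% of the 621), and of the 508 lower in the dark, 303 were also lower in light (59.6%, which is 54.2% of the 559). The difference between the dark and the light effect passed the edgeR test for 0 genes (0%). An unadjusted p below 0.05 was reached by 378 genes, and DESeq2 found 2 genes and limma-voom 0. *con-10* had a log2 fold change of 4.50 in the dark and 5.09 in light, *ccg-4* 5.84 and 7.21, *ham-7* -2.17 and -2.46, and *adv-1* -2.03 and -2.15. *mak-2* was at -1.5 in the dark and -0.83 in light, where it did not pass the test, and *eas* at 2.98 and 2.16, but neither difference passed. The light count was itself unstable, at 544 without double-mutant light replicate 3, 698 without double-mutant light replicate 2 and 14 in a fit of the 6 light libraries alone. It was 901 without ∆*wc-1* light replicate 1, a library with a TMM factor of 0.493 and 26.7% of its counts in its 10 most abundant genes.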

How the data were processed

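Poly-A, strand-specific libraries were sequenced from both ends. Per the methods, the authors trimmed reads with fastp, mapped them with STAR (version 2.7 in the submitters' processing notes) to *N. crassa* OR74A (NC12), counted them per gene with featureCounts and deposited raw counts without normalization. All 24 count columns and 10561 genes were used, and each locus tag matched the RefSeq annotation of NC12. Gene names absent from it come from the annotations of the study.

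DEGs came from edgeR 4.0.16 under R 4.3.3. Counts were scaled by TMM and passed through the edgeR filter on low counts over 8 groups, which kept 9412 genes. One quasi-likelihood model held all 24 libraries, each group having its own mean (16 residual degrees of freedom), and p-values were adjusted by Benjamini-Hochberg. CPM are normalized by TMM. SE is the log2 fold change divided by the square root of F. A count of 0 allows up to 3 counts, which is 0.0525 to 0.153 CPM in the 6 libraries, and covers counting error only. This floor takes counts as independent. Among counts above 100 and up to 1000, 60.5 to 81.6% were even in the libraries labelled double mutant. In those labelled ∆*wc-1*, 62.1 to 65.5% were. The cause of this excess of even counts was not tested. Alternatives were DESeq2 1.42.0, limma-voom (limma 3.58.1), other sets of libraries, RLE, other filters, the replicate block, the percentage of counts in the 10 top genes as a covariate, and each library left out. Counts of listed genes under these were added after the data were seen. The tests were tried on simulated counts whose spread per gene was the same in all groups. The real groups differ in spread (biological coefficient of variation 0.549 in the double mutant and 0.213 in ∆*wc-1*). The simulation therefore cannot show how many calls are false here. Figures used matplotlib 3.10.9.

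Named were *ve-1* and *wc-1*, genes of the lists, the 8 largest rises and falls among DEGs with no overlap of the groups and a mean of at least 10 CPM, the 5 largest in CPM each way, and genes called for a difference of effects. The members and lists were chosen with earlier results of these data known. Lists by symbol for mitochondrial ribosomal proteins, sugar transporters and proteases matched no gene, and those for cytochromes P450 (*cyp450-31*, NCU02852, -2.05, a lower DEG) and amino acid permeases (not called) matched 1 each.

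The main model has no replicate term (the methods name none), and the replicate block was an alternative, printed where it ends a call. The deviations of same-numbered libraries from their group means correlated at 0.259, 0.189 and 0.276 between the double mutant and ∆*wc-1*. Libraries of unequal number gave lower values, -0.287 to 0.0623. Deviations within a group cancel out, so these correlations depend on one another. They do not settle whether the numbers pair the libraries.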

Additional observations from a re-analysis of the deposited data

Results flagged for a closer look

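For NCU09968, the log2 fold change for *ve-1* deletion differed between the backgrounds by 12.09 ± 1.01 (labelled double mutant against ∆*wc-1* minus ∆*ve-1* against wild type, dark, edgeR adjusted p = 1.67e-06). For NCU09969, which overlaps it, the difference was 13.23 ± 0.95 (adjusted p = 1.44e-06). Both fitted values depend on the prior count, since the ∆*ve-1* libraries hold 0 to 2 counts, and give no bound. The genes also had 0 counts in all 3 ∆*ve-1* light libraries, against 26.4 to 113 CPM (NCU09968) and 7.75 to 16.1 CPM (NCU09969) in the light libraries labelled double mutant. NCU09969 is annotated by the study as a transposase of a Sly1-1 element. Whether the regions are present in the ∆*ve-1* strain was not tested.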

How the results depend on the processing

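The number of DEGs between the libraries labelled double mutant and ∆*wc-1* in the dark was 1175 and ranged from 409 to 1802 with 1 library left out. It was 1813 with DESeq2 on all libraries, 2229 with DESeq2 on the 6 libraries, 2063 with edgeR on the 12 dark libraries and 2558 with limma-voom, and 1010 of the 1175 DEGs remained among the 1022 with the replicate block. The block ended the calls of *vos-1*, *nox-1*, *eas*, *stk-37* (adjusted p = 0.0602) and *hsp60* among the genes named and no other. All 1175 kept their sign under every alternative in which they were tested, which is no separate support, since they were picked for a difference in the same libraries. Listed genes called (28) ranged from 11 without double-mutant replicate 2 to 36 without double-mutant replicate 3. They were 16 without double-mutant replicate 1, 13 without ∆*wc-1* replicate 1 and 12 without ∆*wc-1* replicate 3. DEGs of ∆*ve-1* against the wild type (2166) were 3423 with DESeq2 on the 6 libraries and 3485 with limma-voom, and 1153 to 2830 with 1 library left out. The 2 genes with a difference between backgrounds became 4 with DESeq2 on all libraries, 6 with DESeq2 on the 12 libraries and 4 with limma-voom, and stayed 2 with any library left out. The 0 genes with a difference between dark and light became 2 with DESeq2 on all or on the 12 libraries, and 1 without dark wild-type replicate 3 (0 to 1 with any 1 library left out). DEGs in light (1180) were 704 with DESeq2 and 14 with edgeR on the 6 libraries, 1802 with the top-10 share as a covariate, and 544 to 1589 with 1 library left out. *mfa-1* (0.85, not called) was lower with that covariate (-1.07, adjusted p = 0.0218). The cause of these shifts was not tested. Depth limits values near the floor of 3 counts.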
